A study of Mus musculus with 6 samples.

Results

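The group described here holds 8 genes of 18152 in the table, 7 of the serine protease family or its inhibitors and 1 carboxypeptidase. They are the membrane serine proteases *St14* (matriptase) and *Prss8* (prostasin), their Kunitz-type inhibitors *Spint1* and *Spint2*, the secreted *Prss23*, *Prss35* and *Htra1*, and the carboxypeptidase *Cpm*. The members were chosen by name with the difference between the genotypes already known, so that difference is given below as a description and not as a test. All 8 passed the filter on low counts, which left 14131 genes.

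RNA was taken from the inner enamel epithelium (IEE) of the mandibular first molar of mice at E18.5, with 3 libraries in each group. The control group was *Kdf1 fl/fl* and the cKO group was *K14-Cre;Kdf1 fl/fl*. Both groups carry the floxed *Kdf1* alleles, and only the second carries Cre recombinase under the keratin 14 promoter, which deletes *Kdf1* in all epithelia that use this promoter and not in the tooth alone. The labels give the treatment of the controls as WT, whereas the study names the floxed genotype. The IEE was cut out of sections by laser capture, and cells at its border can be included. The labels call the samples biological replicates without naming animals or litters, so p-values measure the spread between these libraries.

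Matriptase is a transmembrane serine protease that cuts proteins at the surface of epithelial cells, and prostasin is a partner protease held in the membrane by a lipid anchor. Each can take part in activating the other, and the Kunitz inhibitors encoded by *Spint1* (HAI-1) and *Spint2* (HAI-2) hold both in check. This balance is known for its role in barrier formation and junction integrity of epidermis, gut and placenta. Carboxypeptidase M, the *Cpm* product, is a membrane enzyme that removes a basic amino acid from the end of peptides.

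*Kdf1*, the deleted gene, had 52.5, 44.3 and 52.7 CPM (counts scaled to the size of the library) in replicates 1, 2 and 3 of the control group. In the cKO libraries it had 0, 1 and 0 counts, where a count of 0 allows up to 0.198 CPM in the smallest library. The targeted gene therefore separated the groups as labelled. Library totals lay between 14713918 and 16675133 estimated counts.

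Markers of cell types are given before the members. Their sums were apart between the groups for the epithelium, keratinised epithelium and ameloblast lists. The sums overlapped for the mesenchyme, immune cell, endothelium and skeletal muscle lists. The summed level of 12 epithelium markers was 8035 to 12449 CPM in the control libraries and 4915 to 7665 CPM in the cKO libraries. Of the 11 that were tested, 10 had lower estimates and 1, *Cdh1* (E-cadherin), fell past the criterion, which 0.432% of all genes met. *Krt14* and *Trp63* were among those found in every library, and no epithelium marker was at 0 in any library. The 12 markers of dental papilla and mesenchyme summed to 4128 to 21788 CPM and to 12467 to 14101 CPM, with 9 of 12 higher and a median log2 difference of 1.16. *Twist1*, a transcription factor of mesenchyme, rose past the criterion (log2 difference 2.23). With the replicate block 7 of the list were called and 6 by DESeq2, all higher, against 6.09% and 6.81% of all genes. All 9 immune cell markers had higher estimates, summing to 41.4 to 87.0 CPM and to 79.1 to 256 CPM, and so had all 9 endothelium markers, at 303 to 383 CPM and 352 to 1025 CPM. Keratinised epithelium markers summed to 57.5 to 176 CPM and to 37.5 to 39.8 CPM, but the list did not move as one. Of the 6 tested, 3 had higher and 3 lower estimates (median −0.11). *Krt6a* was the 1 called, at 69.0 and 4.73 CPM in the mean, with a log2 difference of −3.87. *Krt4* and *Krt13* reached 25.9 and 37.0 CPM in control replicate 3 and at most 0.363 CPM in any other library. Skeletal muscle markers summed to 4.0 to 6.47 CPM and to 4.15 to 6.61 CPM. The 6 ameloblast markers, products of the IEE cells once they begin to secrete enamel matrix, summed to 2296 to 15596 CPM and to 190 to 817 CPM. The 5 tested had a median log2 difference of −4.59. Called lower were 0 by edgeR (0.432% of all genes), 5 with the block (6.09%) and 3 by DESeq2 (6.81%). The groups of *Ambn* and *Odam* overlapped, and *Amelx* ran from 1244 to 10697 CPM within the control group. Outside the keratinised list, where 2 markers were at 0 in some libraries, every defining marker had counts in every library. In tissue RNA, fewer cells of a type and less RNA per cell cannot be told apart, and the part of these shifts in the members' values was not tested.

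**Figure D1:**
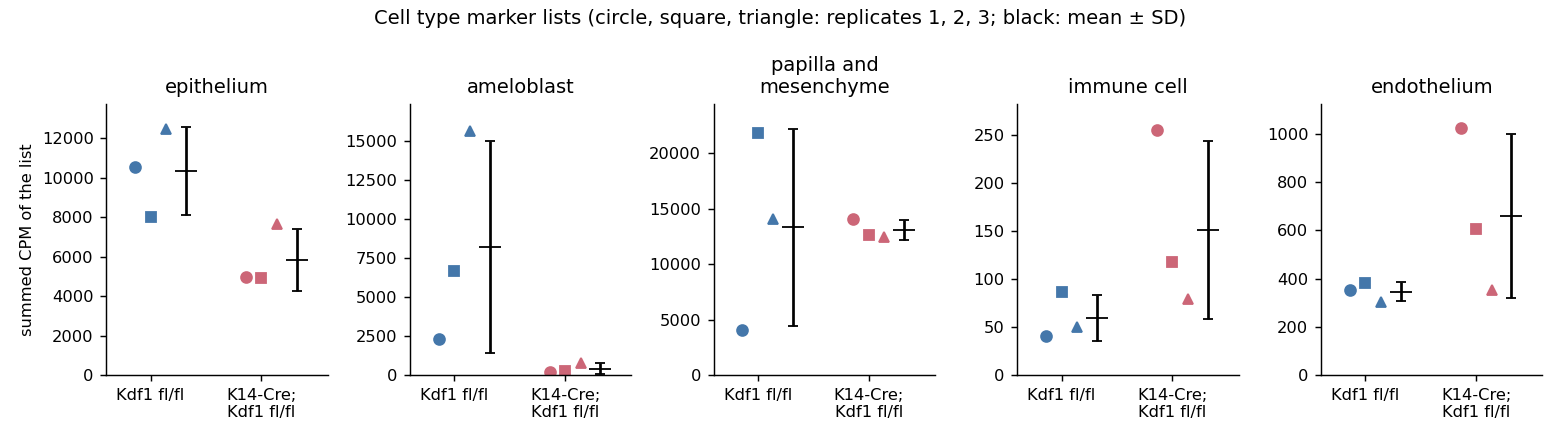
Summed CPM of 5 marker lists in each library, 1 panel per list on a linear axis from 0, with black bars for the mean ± SD (n = 3). Circles, squares and triangles are replicates 1, 2 and 3 of the control (*Kdf1 fl/fl*) and cKO (*K14-Cre;Kdf1 fl/fl*) groups. The epithelium sum reached 7665 CPM at most in the cKO group against at least 8035 CPM in the control group, and cKO replicate 1 was the highest library for immune and endothelium markers.

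In control IEE the inhibitors and *Prss35*, of the serine protease family, were far more abundant than prostasin. On the per-length scale of TPM (counts divided by transcript length and scaled to one total per library), *Spint2* was at 518 ± 85.9 (SD, n = 3), *Prss35* at 156 ± 33.7, *St14* at 96.6 ± 17.5, *Spint1* at 58.8 ± 7.0 and *Cpm* at 49.4 ± 1.10. The ranges of neighbours in this order did not overlap, and neither did those of *Cpm* and the next gene, *Prss23*. *Prss23* (20.8 ± 6.98 TPM), *Htra1* (17.02 ± 2.89 TPM) and *Prss8* (13.2 ± 2.92 TPM) had overlapping ranges and could not be ordered. *Spint2* lay above 98.6% of all genes, *Prss35* above 94.7%, *St14* above 91.0% and *Prss8* above 54.7%. In the cKO libraries the order was *Spint2*, *Prss35*, *Prss23*, *St14*, *Spint1*, *Htra1*, *Cpm* and *Prss8*. Only *Spint2* with *Prss35* and *Cpm* with *Prss8* were then neighbours whose ranges did not overlap. *Cpm* went from above 80.9% of genes to above 60.4%, and *Prss23* from above 63.3% to above 81.2%.

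**Figure D2:**
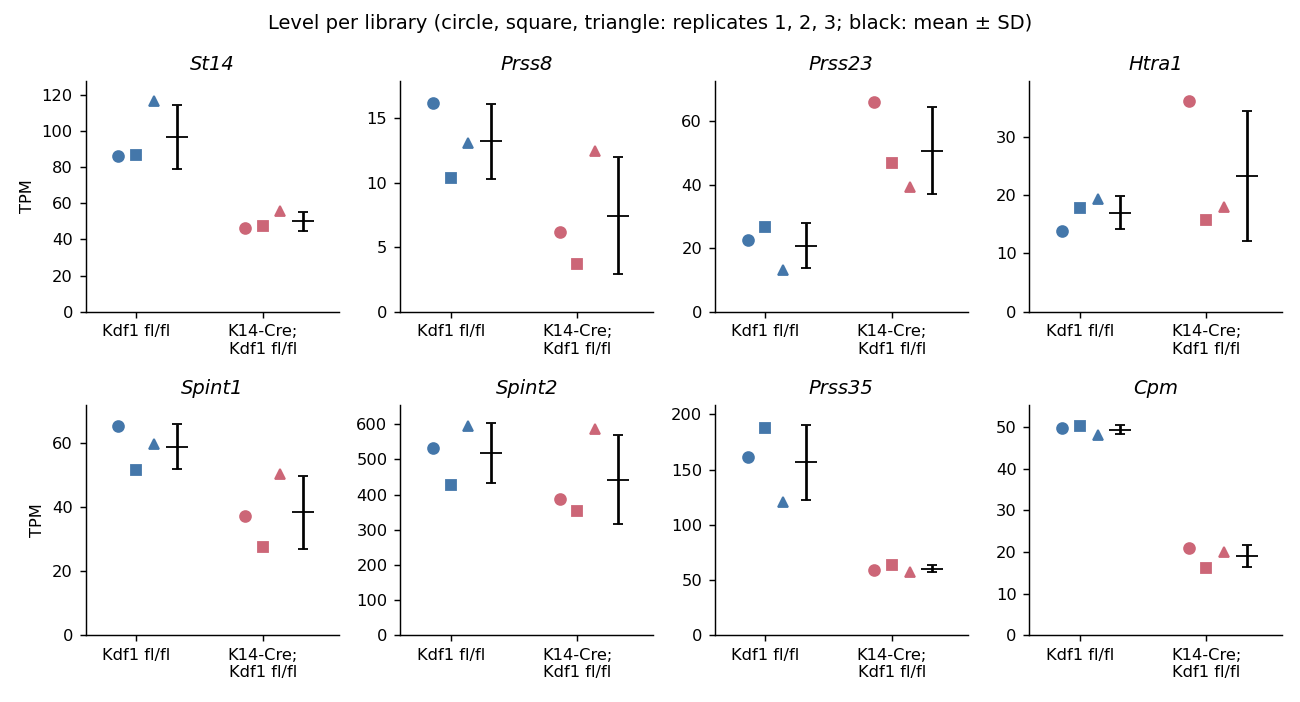
TPM of the 8 members in each library, 1 panel per gene with its own linear axis from 0, with black bars for the mean ± SD (n = 3). Circles, squares and triangles are replicates 1, 2 and 3 of the control (*Kdf1 fl/fl*) and cKO (*K14-Cre;Kdf1 fl/fl*) groups. The groups are apart for *St14*, *Prss23*, *Prss35*, *Cpm* and, by a narrow gap, *Spint1*.

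The bases before the start sites of *Cpm* and *Prss35*, the members with the largest differences in level, and of the inhibitor pair *Spint1* and *Spint2*, which differed less, are shown so that their composition can be set beside the values that follow. Each runs 5′ to 3′ on the gene's strand over 250 bases that end at the base before the start site, from RefSeq on GRCm38.p6. Of the 8 members 6 had such an entry. Capitals mark the GC box GGGCGG and the AACCNG motif of grainyhead factors, regulators of epithelial genes, on either strand. The sequence of *Cpm* lies at chr10:117629250-117629499 (+), that of *Prss35* at chr9:86743383-86743632 (+), that of *Spint1* at chr2:119237110-119237359 (+) and that of *Spint2* at chr7:29281978-29282227 (−).
Cpm: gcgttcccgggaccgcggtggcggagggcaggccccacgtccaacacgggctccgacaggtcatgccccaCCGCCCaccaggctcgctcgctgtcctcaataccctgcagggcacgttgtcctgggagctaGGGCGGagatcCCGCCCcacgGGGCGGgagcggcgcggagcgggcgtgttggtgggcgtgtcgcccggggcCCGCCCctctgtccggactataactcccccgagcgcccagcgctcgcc
Prss35: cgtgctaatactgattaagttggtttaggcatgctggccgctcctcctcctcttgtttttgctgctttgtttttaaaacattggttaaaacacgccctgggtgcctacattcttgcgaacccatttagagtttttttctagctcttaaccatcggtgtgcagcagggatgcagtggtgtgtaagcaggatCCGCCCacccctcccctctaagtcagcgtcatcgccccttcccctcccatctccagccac
Spint1: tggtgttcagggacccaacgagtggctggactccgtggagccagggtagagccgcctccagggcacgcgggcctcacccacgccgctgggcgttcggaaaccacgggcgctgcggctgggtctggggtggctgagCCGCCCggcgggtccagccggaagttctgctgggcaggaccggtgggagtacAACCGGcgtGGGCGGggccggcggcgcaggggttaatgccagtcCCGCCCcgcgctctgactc
Spint2: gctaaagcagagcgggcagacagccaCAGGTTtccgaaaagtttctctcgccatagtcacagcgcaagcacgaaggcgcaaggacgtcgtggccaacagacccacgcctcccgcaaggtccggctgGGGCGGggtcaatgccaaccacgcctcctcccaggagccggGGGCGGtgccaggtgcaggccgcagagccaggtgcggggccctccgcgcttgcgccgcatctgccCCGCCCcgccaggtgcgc

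The window of *Cpm* was 74.4% G and C and held 5 GC boxes, while that of *Prss35* was 50.8% G and C and held 1. *Spint1* and *Spint2* held 3 each, and no marked motif overlapped another in these windows. The GC box occurs in 32.7% of all 32817 promoters of this length. AACCNG was present once in *Spint1*, 63 bases before the start, and once in *Spint2*, 224 bases before it. It was not present in these letters of *Cpm* and *Prss35*, and 33.9% of all promoters hold it. Of the members not shown, *Htra1* held it once, 245 bases before the start, and *Prss23* at 1 of its 7 start sites, 38 bases before it. A link between this motif and the differences in level was not tested. A match of this kind is a description of letters and not a bound site.

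*Cpm* had the control levels closest to each other of the 8. It was at 49.9, 50.2 and 48.2 TPM in control replicates 1, 2 and 3 and at 20.9, 16.2 and 20.1 TPM in the cKO replicates. Each cKO library lay below every control library. In CPM the means were 142 ± 6.24 and 52.6 ± 6.94 (SD, n = 3), 2.71-fold lower, with a log2 difference of −1.44 (SE 0.13).

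*Prss35*, which encodes a secreted protein of the serine protease family that lacks the usual catalytic serine, was at 162, 187 and 120 TPM in the control libraries. It was at 59.3, 63.8 and 57.8 TPM in the cKO libraries, all below the lowest control value. The CPM means were 253 ± 37.4 and 101 ± 11.9, 2.51-fold lower, with a log2 difference of −1.33 (SE 0.15). Of the 8 members, *Prss35* was the 1 whose estimated counts were not whole numbers. How its reads were assigned is not given, and its levels carry that uncertainty.

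*St14* was at 86.4, 86.5 and 117 TPM in the control libraries and at 46.6, 47.5 and 56.0 TPM in the cKO libraries. The groups did not overlap, and the cKO mean was 51.8% of the control mean. The log2 difference was −1.03 (SE 0.19).

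Its partner *Prss8* was at 16.2, 10.4 and 13.1 TPM and then at 6.17, 3.66 and 12.5 TPM. Here cKO replicate 3 lay among the control libraries, and the log2 difference was −0.87 (SE 0.47).

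The Kunitz inhibitors differed less between the groups. *Spint1* was at 65.3, 51.4 and 59.6 TPM and at 37.2, 27.4 and 50.2 TPM, with cKO replicate 3 just under the lowest control library. In CPM that library, at 61.0, lay above control replicate 2, at 58.6, so the groups overlapped, with a log2 difference of −0.69 (SE 0.25). *Spint2* was at 532, 426 and 596 TPM and at 388, 354 and 586 TPM, with a log2 difference of −0.28 (SE 0.27). Its groups overlapped, and again cKO replicate 3 was the highest of its group, as it was in the epithelium marker sum, at 7665 CPM against 4991 and 4915 CPM in cKO replicates 1 and 2.

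*Prss23*, a secreted serine protease, was the member with the opposite sign whose groups were apart. It was at 22.7, 26.7 and 13.1 TPM in the control libraries and at 65.9, 46.8 and 39.4 TPM in the cKO libraries. The CPM mean was 2.28-fold higher, with a log2 difference of 1.19 (SE 0.25). *Htra1*, a secreted serine protease that cuts matrix proteins, was at 13.8, 17.9 and 19.4 TPM and at 36.1, 15.7 and 18.0 TPM. Only cKO replicate 1 stood above the control libraries. This was also the library with the highest immune and endothelium sums, 256 and 1025 CPM. The log2 difference of *Htra1* was 0.36 (SE 0.31), and without that library it was −0.01.

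A gene was called where its log2 difference was at least 1 in size and its adjusted p did not exceed 0.05 (edgeR, quasi-likelihood, Benjamini-Hochberg). By this criterion 2 members were called, *Cpm* and *Prss35*, both lower. The adjusted p by edgeR was 0.0293 for *Cpm*, 0.0498 for *Prss35*, 0.0637 for *St14* and 0.0679 for *Prss23*. *Prss35* thus lay just under the threshold. It was just over it with DESeq2's size factors in edgeR (0.0518), with library size alone in edgeR (0.0533) and with limma on log2(TPM + 1) (0.0506). Over all genes 0.432% were called. With the replicate number as a block 4 members were called (*Cpm*, *Prss35* and *St14* lower, *Prss23* higher) against 6.09% of all genes, and DESeq2 called the same 4 against 6.81%. The block treats equal replicate numbers as pairs, which the labels do not state. In CPM the cKO libraries lay wholly below the control libraries for 3 members, against 16.2% of all genes, and wholly above for 1, against 14.5%. The median log2 difference was −0.78 over the members and −0.00 over all genes tested. Since the members were selected on this contrast, nothing is read from these counts. In edgeR's fits with 1 library left out, *Cpm* was not called without control replicate 1 or 3 or cKO replicate 1 or 2. Each of those 4 fits called 1 gene of the whole table. The log2 differences kept their size over all alternatives, at −1.51 to −1.31 for *Cpm* and −1.44 to −1.22 for *Prss35*. *Prss35* remained called only without cKO replicate 3, where 465 genes were called. Without that library *St14* was called as well.

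The ratio of inhibitors to membrane proteases was taken within each library, which takes away the scaling between libraries but not the choice of members. Summed *Spint1* and *Spint2* stood at 5.83, 4.93 and 5.05 TPM for each TPM of summed *St14* and *Prss8* in the control libraries. The ratio was 8.05, 7.47 and 9.30 in the cKO libraries, all above the control range. The means were 5.27 ± 0.488 and 8.27 ± 0.939 (SD, n = 3), which is 1.57 times as high in the cKO group. In the control mean *Spint2* (518 TPM) far exceeded *Spint1* (58.8 TPM), and *St14* (96.6 TPM) exceeded *Prss8* (13.2 TPM). The summed ratio is therefore mostly that of *Spint2* to *St14* and says little of *Spint1* or *Prss8*.

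Among single pairs, the ratio of *St14* to *Spint2* was 0.187 ± 0.0218 and 0.117 ± 0.0195, without overlap, while *St14* to *Spint1* was 1.66 ± 0.319 and 1.37 ± 0.322, with overlap. *St14* to *Prss8* also overlapped, at 7.55 ± 1.94 and 8.33 ± 4.29. *Spint2* to *Spint1* was 8.81 ± 1.03 and 11.7 ± 1.24, with the cKO libraries above. The widest gap was that of *Prss35* to *Prss23*, at 7.11, 7.02 and 9.19 against 0.899, 1.36 and 1.47. This ratio sets a member that was lower against one that was higher, so its gap restates their separate differences.

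**Figure D3:**
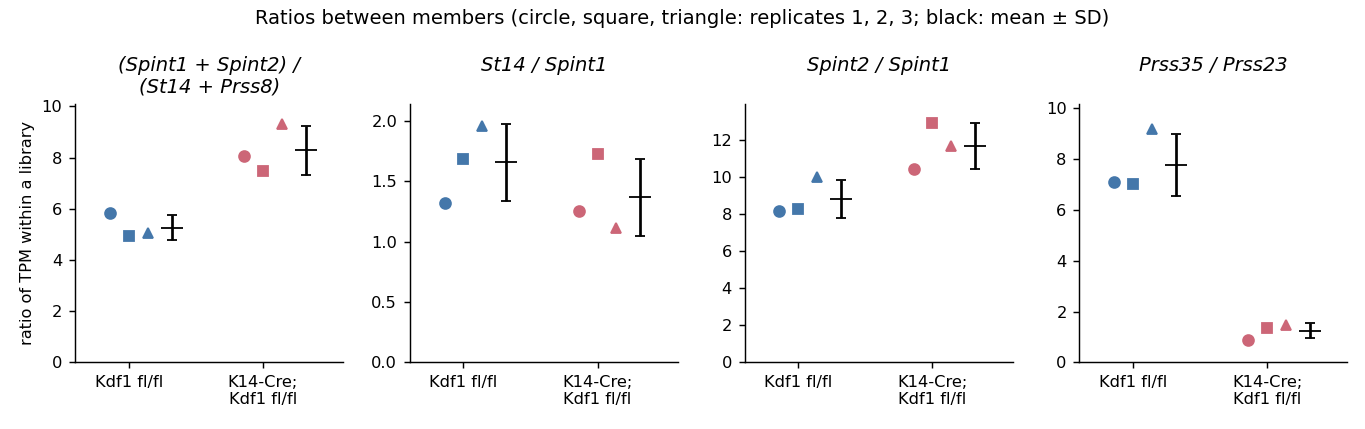
4 ratios of TPM within each library, 1 panel per ratio on a linear axis from 0, with black bars for the mean ± SD (n = 3). Circles, squares and triangles are replicates 1, 2 and 3 of the control (*Kdf1 fl/fl*) and cKO (*K14-Cre;Kdf1 fl/fl*) groups. The groups are apart in all but *St14* to *Spint1*, and furthest apart in *Prss35* to *Prss23*.

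Each member was also set against the summed TPM of the epithelium markers, which was 9191 ± 1546 in the control group and 5375 ± 1302 in the cKO group, or 58.5%. For each 100 TPM of these markers, *St14* was at 1.05 ± 0.112 and 0.950 ± 0.129 TPM, and its groups overlapped. *Spint1* (0.646 and 0.707), *Prss8* (0.144 and 0.131) and *Prss35* (1.78 and 1.17) overlapped on this scale too. The *Cpm* groups did not overlap, with 0.535, 0.662 and 0.452 in the control libraries and 0.432, 0.365 and 0.293 in the cKO libraries. *Spint2* was higher on this scale, at 5.71, 5.61 and 5.58 against 8.0, 8.01 and 8.55, and so were *Prss23*, with means of 0.239 and 0.998, and *Htra1*, with means of 0.188 and 0.455. In the mean *Prss35* was at 65.8% and *Cpm* at 66.1% of the control value on this scale, so the differences were alike in size, and the groups of *Cpm* were apart only by the gap between 0.452 and 0.432. *St14* was at 90.1%. The marker sum itself differed between the groups, with *Cdh1* lower past the criterion, so the scale depends on which markers are summed.

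A measure that did not serve to choose the members is the transcript length implied by the deposited values, the count divided by the TPM relative to the median gene of the library. It moves when a gene's reads come from longer or shorter transcripts. Limma on its log2, with Benjamini-Hochberg adjustment, found 0 of 13180 genes past the threshold (0% called), and 745 had an unadjusted p of at most 0.05. For 6 members the groups differed by −0.624% to 0.478%. The implied length of *Prss23* was 2.52% lower in the cKO group (0.629 against 0.645 of the median gene), with an adjusted p of 0.586 by limma. For *Prss35* it was 1.00, 1.01 and 1.02 in the control libraries and 1.03, 1.03 and 1.19 in the cKO libraries, so that cKO replicate 3 stood apart from the other 5. *Prss35* in that library was the highest of its group in CPM, at 112, and the lowest in TPM, at 57.8. Its group difference of 6.72% had an adjusted p of 0.739 by limma.

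Genes with the profile most like a member over the 6 libraries were sought among 11585 genes with a mean of at least 5 CPM, by the root mean square difference of log2 CPM after each gene was centred on its own mean. Nearest to *Cpm* were *Fer1l5* (0.0822), *Bmp8a* (0.0911), a ligand of the BMP family, and *Rab7b* (0.116). Nearest to *Prss35* were *Fads2b* (0.150), *Me1* (0.157) and *Pof1b* (0.191), and nearest to *St14* were *Col9a3* (0.0799), *Mab21l3* (0.0871) and *Ttc30a1* (0.0887). *Bmp8a* was at 76.1, 71.7 and 93.9 CPM in the control libraries and at 29.6, 24.9 and 34.8 CPM in the cKO libraries. *Col9a3*, a collagen chain, was at 198, 188 and 284 CPM and at 88.7, 95.3 and 110 CPM, with replicate 3 highest in both groups as for *St14*.

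**Figure D4:**
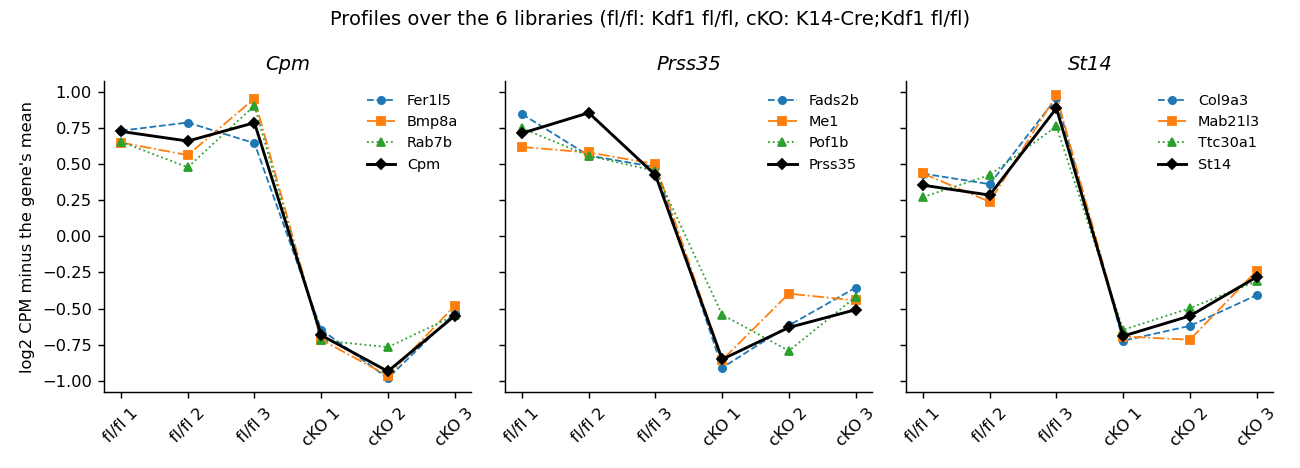
Log2 CPM minus the gene's own mean in each of the 6 libraries (fl/fl is control) for *Cpm*, *Prss35* and *St14*, black lines, and the 3 nearest genes of each, coloured lines that only join the points of a gene. The coloured lines lie within 0.0799 to 0.191 log2 units (root mean square) of the member's line.

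*Me1*, the gene of a malic enzyme that supplies NADPH, is also the neighbour of *Prss35* in the RefSeq order of genes on GRCm38.p6. It was at 148, 144 and 136 CPM in the control libraries and at 53.4, 73.4 and 71.1 CPM in the cKO libraries, and it fell by 1.12 on the log2 scale (SE 0.14, adjusted p = 0.0498 by edgeR's quasi-likelihood test). On the other side of *Prss35*, *Snap91* had a log2 difference of −1.20 (SE 0.42), and its groups overlapped. The look at neighbours was chosen after these values were seen. Of the 16 protein-coding neighbours of the 8 members 13 were tested, and *Me1* was the 1 called, against 0.432% of all genes. *Rhov*, next to *Spint1*, had a log2 difference of −1.14 (SE 0.22, adjusted p = 0.0637 by edgeR), with its groups apart. The neighbours of *Cpm*, *Cpsf6* and *Mdm2*, had log2 differences of 0.18 and 0.12.

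Beyond the members, 138 related proteases, inhibitors, carboxypeptidases and substrates were listed by family, of which 118 were in the table and 67 were tested. In edgeR's fit 2 of the 67 were called, against 0.432% of all genes, 1 in each direction, and 0 were called when any library but cKO replicate 3 was left out. With the replicate block 14 were called, 8 higher and 6 lower, against 6.09% of all genes. DESeq2, which was run without the filter on low counts, called 15 of the 67, 10 higher and 5 lower, against 6.81%, and 3 more that had not passed the filter. The median log2 difference of the 67 was 0.13.

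**Figure D5:**
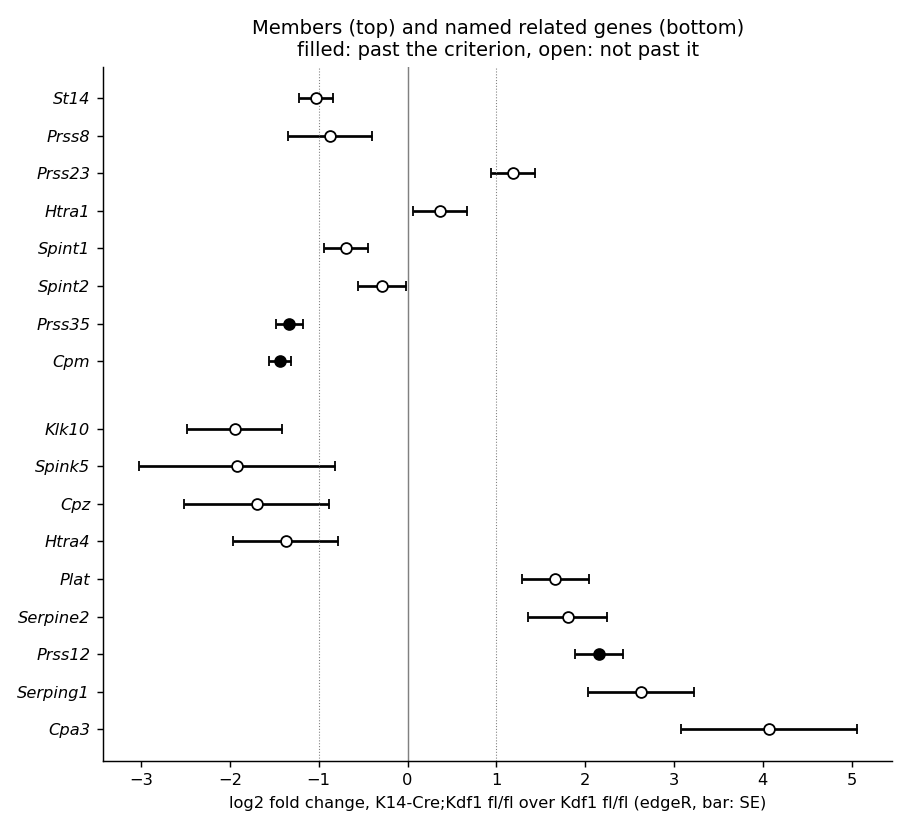
Log2 difference (cKO minus control) of the 8 members, above, and of related genes, below, from the edgeR fit, with bars of 1 SE, filled points where the criterion was met and dotted lines at a log2 difference of 1 in either direction. The filled points are *Prss35* and *Cpm* on the left and *Prss12* on the right.

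Among the 16 membrane and secreted serine proteases tested, of 32 in the table, 8 had higher and 8 lower estimates (median 0.08). Only 1 was called by edgeR, against 0.432% of all genes. This was *Prss12* (neurotrypsin), at 3.83, 3.45 and 3.16 CPM in the control libraries and at 18.9, 16.9 and 10.7 CPM in the cKO libraries. It rose by 2.15 on the log2 scale (SE 0.27, adjusted p = 0.0498 by edgeR's quasi-likelihood test). *Plat*, the tissue plasminogen activator, was at 11.6 ± 0.654 and 36.8 ± 19.7 CPM, a log2 difference of 1.66 (SE 0.38) with an adjusted p of 0.0735 by edgeR and of 0.0276 with the replicate block. *Htra4* was at 6.64 and 2.57 CPM in the mean, a difference of −1.37 (SE 0.59). The relatives of *Htra1* thus had no common sign, with *Htra2* at 0.21 and *Htra3* at 1.30.

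Of the kallikreins, trypsin-like secreted proteases, 4 of 11 in the table were tested, 3 of them lower. EdgeR called 0 (0.432% of all genes), while the block (6.09%) and DESeq2 (6.81%) each called 1, *Klk10*. It was also the 1 with an unadjusted p of at most 0.05, a level reached by 13.0% of all genes with higher and 11.6% with lower estimates. *Klk10* was at 28.1, 34.9 and 64.1 CPM and at 5.63, 7.36 and 20.04 CPM, without overlap. Its log2 difference was −1.95 (SE 0.53), with an adjusted p of 0.0981 by edgeR and of 0.00451 with the replicate block.

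Among 16 substrates and receptors of the matriptase cascade 13 were tested, 5 with higher and 8 with lower estimates (median −0.30). *Epcam*, an adhesion protein of epithelia that matriptase can cut, was at 321 and 309 CPM in the mean, a log2 difference of −0.05. *F2rl1*, the receptor PAR2 that trypsin-like proteases activate, was at 44.8 and 21.8 CPM, with a log2 difference of −1.04 (adjusted p = 0.116 by edgeR, 0.0293 with the replicate block). *Scnn1a*, *Scnn1b* and *Scnn1g*, the subunits of an epithelial sodium channel that prostasin acts on, had log2 differences of 0.77, −0.31 and 0.00.

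The relatives of *Cpm* mostly had estimates of the other sign, none of them called by edgeR. Of the 10 basic and related metallocarboxypeptidases tested, 9 had higher estimates and the median log2 difference was 0.88, and the criterion was met by 0 in edgeR, 1 with the block (6.09% of all genes) and 2 with DESeq2 (6.81%). At an unadjusted p of at most 0.05, 6 were higher and 0 lower, against 13.0% and 11.6% of all genes. *Cpe* (carboxypeptidase E), which trims peptide hormones, was at 91.2, 112 and 102 CPM and at 185, 208 and 198 CPM. Its log2 difference of 0.95 (SE 0.12, adjusted p = 0.0498 by edgeR) missed the fold criterion. *Cpa3*, a carboxypeptidase of mast cells, was at 0.415 and 7.07 CPM in the mean. It had 16.6 CPM in cKO replicate 1, the library with the highest immune marker sum, and at most 2.45 CPM in the others. *Cpz*, the 1 with a lower estimate, was at 1.76, 15.6 and 15.5 CPM and at 1.46, 2.96 and 5.74 CPM. Its groups overlapped, with a log2 difference of −1.70 (SE 0.82, adjusted p = 0.247 by edgeR).

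Of the 24 serine protease inhibitors tested, of 43 in the table, 14 had higher and 10 lower estimates (median 0.13). Called were 0 by edgeR (0.432% of all genes), 6 with the block (6.09%) and 5 by DESeq2 (6.81%). At an unadjusted p of at most 0.05, 5 were higher and 3 lower, against 13.0% and 11.6% of all genes. *Serpine2* (protease nexin-1) was at 145, 95.6 and 98.0 CPM and at 692, 227 and 260 CPM, a log2 difference of 1.80 (SE 0.45) with an adjusted p of 0.0842 by edgeR and of 0.0124 with the block. *Serping1*, the C1 inhibitor, was at 9.48 and 58.8 CPM in the mean, with 109 CPM in cKO replicate 1, a difference of 2.63 (SE 0.60, adjusted p = 0.0745 by edgeR and 0.0333 with the block). *Spink5*, the gene of the inhibitor LEKTI, was at 7.83 and 2.06 CPM, a difference of −1.92 (SE 1.10, adjusted p = 0.324 by edgeR), and its groups overlapped. With the replicate block it met the criterion, with a log2 difference of −1.85 and an adjusted p of 0.0257 by edgeR, and it was lower in the cKO library of each number (16.2 and 3.29, 0.909 and 0.189, 6.38 and 2.70 CPM). *Serpinb5* (maspin), an epithelial serpin, was at a log2 difference of −1.06, with an adjusted p of 0.0120 with the block in edgeR.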

How the data were processed

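RNA from the IEE of the mandibular first molar at E18.5 was sequenced in 3 control (*Kdf1 fl/fl*) and 3 cKO (*K14-Cre;Kdf1 fl/fl*) libraries, made with the TruSeq RNA kit per the labels. For 18152 genes the authors deposited estimated counts per library, without normalisation, of which 10.9% to 11.5% of values were not whole, and TPM values, scaled by transcript length to an equal total. The submitters' processing notes name BWA 0.7.12, Picard 2.6.0 and StringTie without their roles, and the genome build is not given in the sources used here. The authors' group averages and FPKM values were not used.

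Members and lists were chosen with earlier results of these data known. The genes named are the 8 members and *Kdf1*, related genes past the criterion, the 10 related genes with the largest difference at 5 CPM or more in the higher group, and the 3 nearest profiles for *Cpm*, *Prss35* and *St14*. Others, such as neighbours, epithelial sodium channel subunits, *Htra2*, *Htra3*, *Epcam*, *F2rl1*, *Cpe* and *Serpinb5*, were chosen after their values were seen. A related gene that met these rules is not reported here. In R 4.3.3, counts were rounded, filtered with filterByExpr, scaled by TMM (factors 0.950 to 1.03) and compared across all genes by edgeR 4.0.16 (robust quasi-likelihood, two-sided, Benjamini-Hochberg), with DESeq2 1.42.0 and limma 3.58.1 as alternatives, as were other scalings, no filter, log2(TPM + 1) and log2(TPM + 0.1), the replicate block and the omission of each library. The implied length used genes with at least 10 counts in every library. The biological coefficient of variation was 25.4%. A count of 0 allows 3 counts, 0.182 to 0.198 CPM, which covers counting error only since PCR copies are not independent. Within a group, differences between libraries came to 36.0 to 76.7 times what sampling alone gives, so all 6 were counted as separate samples. Both groups use replicate numbers 1, 2 and 3, and deviations of same-numbered libraries correlated at 0.135, 0.324 and 0.499 across genes. Those of differently numbered libraries ran from −0.410 to 0.144, the highest for control replicate 2 with cKO replicate 1. The block reads the numbers as pairs, which no label states, so its fits are given only as an alternative. The scripts were tested on simulated data.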

Additional observations from a re-analysis of the deposited data

How the results depend on the processing

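Members past the criterion numbered 2 in the edgeR fit, 4 by DESeq2, and 1 each with DESeq2's size factors in edgeR, with library size alone and with limma on log2(TPM + 1). The related lists gave 2, then 18 by DESeq2 (15 of them among the 67 genes that passed edgeR's filter) and 0 under those other 3 settings. All genes gave 61 (20 higher, 41 lower), 1038 by DESeq2 (757 and 281), 7 with size factors (1 and 6), 9 with library size alone (2 and 7), 16 with limma on log2(TPM + 1) (4 and 12), 52 on log2(TPM + 0.1) (16 and 36) and 103 without the filter (36 and 67). Leaving out 1 library in turn gave 0 to 3 members, 0 to 7 related genes and 1 to 465 genes in all, the 465 without cKO replicate 3. The cause of these differences was not tested.

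With the replicate number as a block, 4 members, 14 related genes and 860 genes (588 higher, 272 lower) were called. The implied length gave 0 calls with the block in limma, 3 with at least 50 counts in every library, 185 without centring on the library's median gene, and 0 to 6 with 1 library left out. Over 13 alternatives 7 of the 8 members kept their sign, with ranges of log2 difference of −1.51 to −1.31 for *Cpm*, −1.44 to −1.22 for *Prss35*, −1.15 to −0.82 for *St14* and 0.98 to 1.35 for *Prss23*. *Htra1* ran from −0.0050, the value without cKO replicate 1 and the only change of sign among the members, to 0.60.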
